A study of Mus musculus with 3 samples.

Results

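miR-28a and miR-151 are mouse microRNAs made from hairpins that lie in introns of Lpp and Ptk2, genes that encode an actin-associated LIM protein and focal adhesion kinase. Both products of each hairpin, mmu-miR-28a-5p and mmu-miR-28a-3p and mmu-miR-151-5p and mmu-miR-151-3p (written below without the mouse prefix), were followed during osteoclast formation. These 4 mature miRNAs of 899 listed were chosen by name because miR-28a-5p was higher in mature osteoclasts in these libraries. That choice was made with all 3 libraries of the tables in view, so their values in each contrast are a description with no test.

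The RNA came from cultured marrow cells of C57BL/6 mice of 11 weeks, with 1 library per group. Bone marrow macrophages (BMM) were grown for 72 h with 50 ng/mL of M-CSF, a macrophage growth factor. Preosteoclasts (pOC) were made from them with 30 ng/mL M-CSF and 100 ng/mL RANKL, the cytokine that induces osteoclasts, over 24 h. Mature osteoclasts (mOC) received the same doses of both factors for at least 72 h. The treatment text has all cultures exposed to the bisphosphonate alendronate, at 500 µM over 12 h, to make apoptotic bodies, whereas the series describes exosomes, and the sample labels do not say which was sequenced. In the tables another library, whose columns are headed R, serves as the reference. No label says what R stands for. It was matched to no sample, so R enters only through the authors' deposited fold changes.

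A miRNA hairpin is cut into a 5p and a 3p strand. One of them is usually loaded into an Argonaute protein and kept, and the other is mostly degraded. The loaded strand finds its targets through its seed, bases 2 to 8 from the 5′ end, so both arms of a hairpin can repress different mRNAs. Both hairpins are described as derived from old LINE repeats of the L2 class, as is the related Mir708. In human cells, miR-28-5p is known to restrain B-cell lymphoma growth, and miR-151-5p has been described in liver cancer as acting with its host's product in cell migration.

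RefSeq entries (GRCm38.p6) were at hand for 2 of the 4 members, both arms of miR-28a. They are shown with both arms of miR-708, since miR-708-5p has the same seed as miR-28a-5p and so tells a seed family apart from a single miRNA. Capitals mark the seed.
miR-28a-5p: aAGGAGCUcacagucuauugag
miR-708-5p: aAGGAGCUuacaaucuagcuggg
miR-28a-3p: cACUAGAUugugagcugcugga
miR-708-3p: cAACUAGAcugugagcuucuag

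The first 8 bases of miR-28a-5p and miR-708-5p are identical, and 16 of 22 positions compared from the 5′ end match. miR-28a-3p and miR-708-3p share a run of 8 bases but have different seeds. In the GENCODE annotation of GRCm38, Mir28a lies on chromosome 16 (24827855 to 24827940, plus strand) inside Lpp and overlaps none of its exons. Mir151 lies on chromosome 15 (73254815 to 73254882, minus strand) in an intron of Ptk2, and an antisense gene, 1700085D07Rik, runs across it on the other strand. Mir708 lies on chromosome 7 (96249424 to 96249532, plus strand) in an intron of the teneurin gene Tenm4. The deposited tables hold miRNAs only, so the mRNAs of these hosts were not measured here.

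Assigned counts came to 5430426 in pOC and 7017707 in mOC. All 4 markers of myeloid cells (both arms of miR-223 and of miR-142a) were found in both libraries, with summed levels of 5479.9 CPM (counts per 1000000 assigned counts) in pOC and 9233 in mOC. That sum was carried by miR-142a-5p (27762 and 50954 counts), while miR-223-3p had 382 and 1753. Of the 4, 2 were at least 2-fold higher in mOC. Against R, the authors' deposited log2 fold changes in pOC and mOC were -3.48 and -1.69 for miR-223-3p, and -0.32 and 2.22 for miR-142a-3p. Markers of other sources were present too. The 5 erythroid markers summed to 842 CPM in pOC and 299 in mOC, with 4 of 5 at least 2-fold lower in mOC. Of these, miR-486a-5p (818 and 333 counts) and miR-486b-5p (847 and 341) were nearly equal. They may share reads and so may not be separate markers. The 5 stromal markers summed to 1188 and 1158 CPM, a sum carried by miR-199a-3p (4862 and 6687 counts), while 3 of 5 were at least 2-fold lower and their median log2 ratio of mOC over pOC was -1.32. The 3 liver and serum markers summed to 2768 and 952 CPM, mostly miR-122-5p (11089 and 2876 counts), the 1 of 3 that was 2-fold lower, and their log2 ratios ran from -2.32 to 0.76. Both arms of the platelet and endothelial miR-126a summed to 153 and 95.0 CPM, and neither differed 2-fold. Of the lymphoid markers, miR-150-5p, the single one listed, stood at 3.13 and 2.85 CPM. Every listed marker had at least 1 count in both libraries. The part of these sources in the values below was not tested.

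The 3p strand was the abundant product of both hairpins. miR-151-3p, the most abundant of the 4, had 17888 counts in pOC and 15932 in mOC. Its level was 3294 CPM in pOC (95% exact binomial interval 3246 to 3343) and 2270.3 CPM in mOC (2235 to 2306), the 45th and the 58th highest of all miRNAs. miR-28a-3p had 1246 counts in pOC and 1665 in mOC, which is 229 CPM (217 to 243) and 237 CPM (226 to 249). The counting interval of its fold of mOC over pOC, 0.960 to 1.11, includes 1. No difference in miR-28a-3p was thus detectable at this depth with the totals as scale. Over the other scalings its log2 ratio of mOC over pOC ran from -0.01 to 0.32. All intervals reflect counting error alone, and the spread between cultures was not measured.

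The 5p strands were scarce and both were higher in mOC. miR-28a-5p had 83 counts in pOC and 359 in mOC. Its level was 15.3 CPM in pOC (12.2 to 18.9) and 51.2 CPM in mOC (46.0 to 56.7), and its place among all miRNAs went from 263 to 197. miR-151-5p had 109 counts in pOC and 264 in mOC, or 20.1 CPM (16.5 to 24.2) and 37.6 CPM (33.2 to 42.4). The order of the 5p strands thus differed between the libraries: in pOC miR-151-5p was above miR-28a-5p with overlapping intervals, and in mOC miR-28a-5p was above miR-151-5p with intervals that did not overlap. The 3p strands kept their order, miR-151-3p far above miR-28a-3p in both.

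**Figure D1:**
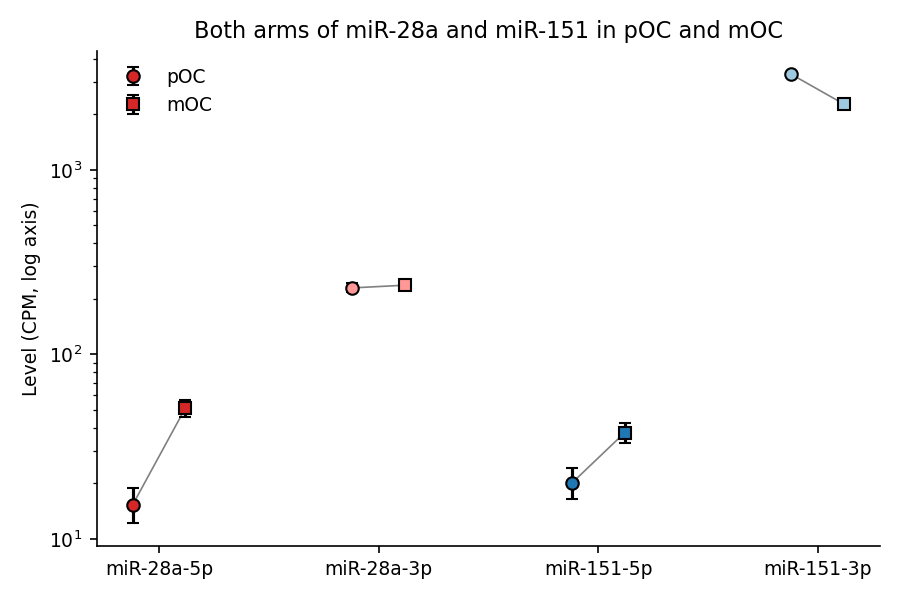
Level of each of the 4 miRNAs in CPM (log axis) in the pOC library (circle) and the mOC library (square), with 95% exact binomial intervals for counting error and 1 library per point. The lines of the 5p strands slope up, from 15.3 to 51.2 CPM and from 20.1 to 37.6 CPM, while miR-28a-3p is nearly level (229 and 237 CPM) and miR-151-3p slopes down.

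Set against each other, mOC had 3.35-fold more miR-28a-5p than pOC (counting interval 2.63 to 4.30) and 1.87-fold more miR-151-5p (1.49 to 2.36). For miR-28a-3p the fold was 1.03 (0.960 to 1.11). miR-151-3p was lower in mOC, at 0.689 of its pOC level (0.675 to 0.704). On the log2 scale, with a pseudocount of 1 count, the ratios were 1.73 for miR-28a-5p, 0.90 for miR-151-5p, 0.05 for miR-28a-3p and -0.54 for miR-151-3p. The median over the 337 miRNAs with at least 50 counts in a library was 0.13. Of those 337, 5 had a ratio above that of miR-28a-5p and 47 a ratio above that of miR-151-5p, while 68 lay below miR-151-3p.

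Calls required a 2-fold difference (log2 of 1 or more in size), a sum of 10 or more counts from pOC and mOC, and a counting interval without 1. All 4 members passed the count minimum, miR-28a-5p alone was called higher and 0 were called lower. Of the 560 miRNAs that passed this minimum, 49 (8.75%) were called higher and 69 (12.3%) lower. Since the members were picked on this contrast, nothing is read from their count. The threshold falls between miR-28a-5p, inside it, and miR-151-5p at 0.90, just outside it. With the authors' own scaling constants in place of the totals, which raise the median ratio by 0.27, miR-151-5p stood at 1.17 and 2 members were called. Under those constants 62.0% of all called miRNAs were higher, against 41.5% with the totals. The authors' deposited fold changes for this pair, given as pOC over mOC, did not follow those constants. They had log2 values of -1.75 for miR-28a-5p and -0.91 for miR-151-5p, close in size to those from the totals. Of 899 miRNAs the authors listed 71 as higher in pOC and 51 as lower. miR-28a-5p was among those 51 and the other members were in neither list.

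**Figure D2:**
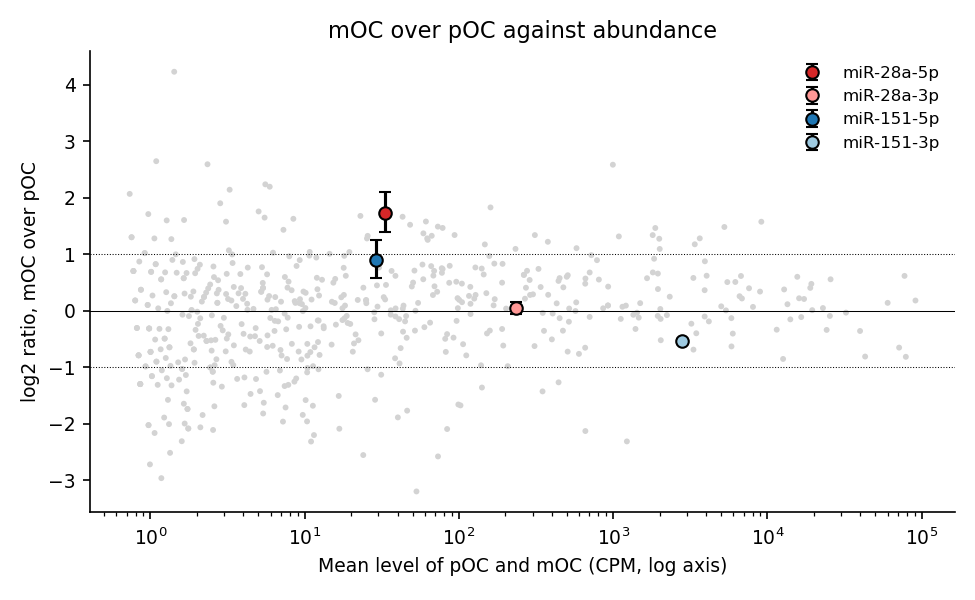
The log2 ratio of mOC over pOC against the mean level in CPM (log axis) for miRNAs with at least 10 counts (grey) and the 4 members (coloured, with counting intervals). Dotted lines mark a 2-fold difference. miR-28a-5p, at 1.73, lies above the upper line, miR-151-5p just under it, and miR-28a-3p on the zero line.

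Because both strands of a hairpin are counted in the same library, their ratio does not depend on how libraries are scaled. The 5p strand made up 6.25% of the miR-28a counts in pOC (95% exact interval 5.00 to 7.68%, 1329 counts in all) and 17.7% in mOC (16.1 to 19.5%, 2024 counts). For miR-151 it made up 0.606% in pOC (0.498 to 0.730%, 17997 counts) and 1.63% in mOC (1.44 to 1.84%, 16196 counts). In both hairpins the interval of mOC lay wholly above that of pOC, and the 3p strand still led in each library. There were 15.0 miR-28a-3p counts for each miR-28a-5p count in pOC and 4.64 in mOC, and 164 and 60.3 miR-151-3p counts for each miR-151-5p count.

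The log2 of 5p over 3p was thus 1.68 higher in mOC for miR-28a (counting interval 1.33 to 2.07) and 1.44 higher for miR-151 (1.11 to 1.78). The intervals of both hairpins overlap, but no interval of their difference was taken, so a difference between them was not tested. Among the 81 hairpins with both arms at 50 counts or more in a library, changes ran from -2.18 to 1.87 with a median of 0.02. Of these 81, 15 (18.5%) gained at least 1 toward 5p and 11 (13.6%) at least 1 toward 3p. miR-28a was at place 3 from the top, between miR-125a (1.71) and miR-378a (1.61), and miR-151 at place 7, between let-7d (1.54) and miR-30b (1.42). These places include the contrast on which miR-28a-5p was picked and are given as a description.

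**Figure D3:**
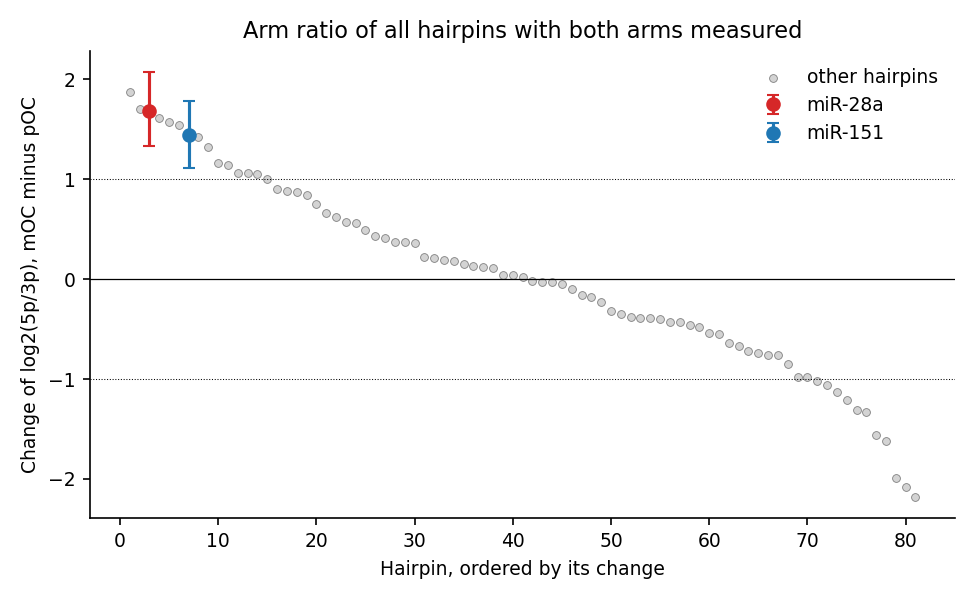
Change of log2(5p/3p) from pOC to mOC for 81 hairpins, ordered from the highest to the lowest; bars on miR-28a and miR-151 are 95% counting intervals and dotted lines mark 2-fold. miR-28a, at 1.68, is at place 3 from the top and miR-151, at 1.44, at place 7, with 13 other hairpins also above the upper line.

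In both hairpins the scarcer strand was the one that rose. The abundant strand was nearly level for miR-28a (log2 ratio 0.05) but lower in mOC for miR-151 (-0.54), so both strands entered the arm change of miR-151. Over the 81 hairpins the log2 ratio of the scarcer strand minus that of the more abundant one had a median of 0.03. The scarcer strand gained at least 1 in 17 of them and lost at least 1 in 9. Nor did 5p strands as a class stand far above 3p strands: the median log2 ratio of mOC over pOC was 0.20 over 154 5p strands and 0.09 over 147 3p strands with 50 counts.

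Summed over both arms, miR-28a stood at 245 CPM in pOC and 288 in mOC, a fold of 1.18 (1.10 to 1.26), and miR-151 at 3314 and 2308 CPM, a fold of 0.696 (0.682 to 0.711). All 4 together took 0.356% of the pOC counts and 0.260% of the mOC counts. The output of miR-151 as counted was therefore lower in mOC although its 5p strand was higher.

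The relatives of miR-28a did not all move with it. miR-28c, a paralogue whose hairpin lies on chromosome 15 (53614205 to 53614279, minus strand) in an intron of Samd12, went from 6 counts in pOC to 38 in mOC. Its scaled level was 4.90-fold higher in mOC (2.06 to 14.2). The sources used here do not describe whether reads that match both miR-28c and miR-28a-5p were divided or counted under each name. Elsewhere, miR-199a-3p and miR-199b-3p had the same counts (4862 in pOC and 6687 in mOC), so reads may be counted under more than 1 name. Whether miR-28c changed apart from miR-28a-5p is therefore uncertain. The sum of miR-28c and miR-28a-5p, which may hold some reads more than once, had 89 and 397 counts. It was 3.45-fold higher in mOC (2.74 to 4.39).

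miR-708-5p, with the seed of miR-28a-5p printed above, had 17 counts in pOC and 18 in mOC, a fold of 0.819 with a wide counting interval of 0.398 to 1.69. That interval lies below the one of miR-28a-5p. Counting both as 1 seed family gave 100 counts in pOC and 377 in mOC, a fold of 2.92 (2.33 to 3.67), most of it from miR-28a-5p. miR-708-3p, the other strand of that hairpin, had 63 and 24 counts and was 3.39-fold lower in mOC (2.09 to 5.68). In pOC it was the more abundant strand of miR-708, and in mOC the counts of both strands were close.

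Base composition moved weakly with the ratio. Over the 306 of 337 miRNAs with a sequence entry, Spearman's rho between the GC share and the log2 ratio of mOC over pOC was -0.23, a correlation across miRNAs of the same libraries, which are not independent replicates. The median log2 ratio was 0.40 in the 106 miRNAs with the lowest GC share and -0.04 in the 109 with the highest. miR-28a-5p has 45.5% GC and miR-28a-3p 50.0%, on either side of the median of 47.8%. The part of base composition in the arm values was not tested.

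Against R, the authors' deposited table put miR-28a-5p 2.19-fold higher in mOC (log2 1.13) and 1.48-fold lower in pOC (log2 -0.57). In the authors' deposited table miR-151-5p had the same signs at smaller size, log2 0.45 in mOC and -0.42 in pOC. By these deposited fold changes both 5p strands were thus lowest in pOC of the 3 libraries and highest in mOC.

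The 3p strands lay closer to R in the authors' deposited table. miR-28a-3p had a log2 value of -0.14 in pOC and -0.13 in mOC in the authors' deposited table, nearly the same at both stages. For miR-151-3p the authors' deposited table gave 0.39 in pOC and -0.19 in mOC, signs opposite to those of its 5p partner. The authors' list of miRNAs higher in mOC than R, set at an absolute log2 value of at least 1 and an unadjusted p-value under 0.05, held 52 of 899 miRNAs (5.78%), and 1 of the 4 members, miR-28a-5p. The matching list for lower in mOC held 6.23% of all miRNAs and 0 members, and the lists of pOC over R, with 6.56% higher and 4.12% lower, held 0 members. Since miR-28a-5p was picked for its level in mOC across the 3 libraries, nothing is read from these counts of members. Both comparisons share R, and no replicate measured its spread.

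**Figure D4:**
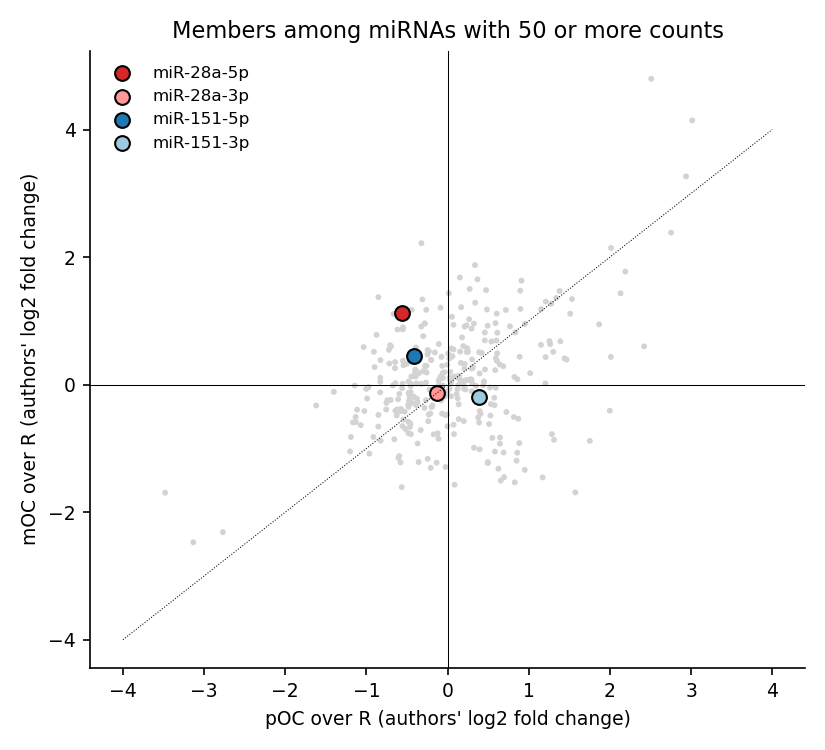
Authors' deposited log2 fold change of mOC over R (vertical) against pOC over R (horizontal) for miRNAs with at least 50 counts in pOC or mOC (grey) and the 4 members; on the dotted line pOC and mOC are equal. The 5p strands sit in the upper left, below R in pOC and above it in mOC, miR-28a-3p lies near the origin and miR-151-3p in the lower right.

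Taken as a difference between strands in the authors' deposited table, log2 of 5p over 3p relative to R was -0.43 in pOC and 1.26 in mOC for miR-28a, and -0.80 in pOC and 0.64 in mOC for miR-151. In each hairpin the 5p strand was thus the less favoured relative to R in pOC and the more favoured in mOC. Of the relatives, miR-28c had the signs of miR-28a-5p in the authors' deposited table, at -0.46 in pOC and 1.77 in mOC. miR-708-5p was at 1.17 and 0.84, and miR-708-3p at 0.88 and -0.92. Like miR-28a-5p, miR-28c was in the authors' list of miRNAs higher in mOC than R. Reads may be counted under both of these names, so the likeness may not be independent.

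The miRNAs with the most similar pattern were those at the smallest Euclidean distance over the pair of deposited log2 fold changes against R, among miRNAs with 50 counts, which rests on 3 libraries alone. For miR-28a-5p these were, from the authors' deposited table, miR-331-3p (distance 0.10), miR-491-5p (0.13) and miR-16-2-3p (0.23). Their pOC counts were 12, 22 and 208 in that order, so the first pair rests on few reads. Nearest to miR-151-5p were miR-30e-3p (0.09), miR-200a-3p (0.14) and miR-30e-5p (0.14), so both strands of miR-30e were among its neighbours. Nearest to miR-28a-3p were miR-29a-5p (0.01), miR-351-5p (0.02) and miR-6960-5p (0.04), and nearest to miR-151-3p were miR-361-3p (0.07), miR-331-5p (0.08) and miR-1981-5p (0.08). The strands of miR-331 were thus neighbours of members on opposite sides, its 3p strand of miR-28a-5p and its 5p strand of miR-151-3p.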

How the data were processed

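The submitters' processing notes name FastQC, HISAT2, StringTie and GRCm38; the sources used here do not give the library kit, trimming, miRNA annotation or handling of multiply matching reads. Raw counts of reads for each mature miRNA were deposited, per the file headers. The authors also deposited normalised counts, treated as a score: raw counts divided by a constant of 4803435 (pOC) or 5139860 (mOC) and multiplied by 1000000. The authors' tables further hold, for each pair of libraries, a log2 fold change, its linear ratio and a p-value without adjustment. Their lists of higher and lower miRNAs match a log2 size of 1 or more with p under 0.05 without exception.

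Columns headed POC were matched to pOC by name. Those headed OC, read as osteoclast, were taken as mOC because OC is the only library beside POC in that comparison. The files have 36 per-sample columns. Not used were 32, among which 12 are headed R.

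Each group had 1 library, so no replicated test could be made. Counts were scaled to library totals; log2 ratios used a pseudocount of 1, adjusted to library size. Fold intervals are 95% exact Clopper-Pearson intervals of the pair of counts, and those of arm ratios are exact conditional intervals of the odds ratio (SciPy 1.17.1). No molecular identifiers are described, so reads may not be independent molecules and intervals cover counting error only. The call rule was also run on simulated counts that held counting error only. That run had no spread between cultures, so it does not show how the rule behaves with such spread. Alternatives used TMM of edgeR 4.0.16, size factors of DESeq2 1.42.0, the authors' constants, totals without the 5 most abundant miRNAs per library, other pseudocounts and other count minimums. The miRNAs named are the members, their sequence relatives, the 3 nearest by pattern and the neighbouring hairpins in the order of arm change. Relatives by seed could be sought only for the 2 members with a sequence entry, among miRNAs that also have one. None could be sought for miR-151. miR-28c, without an entry, was included by name. Members, lists and rules were chosen with earlier results of these data known.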

Additional observations from a re-analysis of the deposited data

How the results depend on the processing

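No paired analysis was possible because each group had 1 library and no test was made. The log2 ratio of miR-28a-5p in mOC over pOC lay between 1.67 (totals without the 5 most abundant miRNAs) and 2.003 (the authors' constants) over the 4 other scalings and the other pseudocounts, and stayed past the 2-fold threshold in each. The arm changes, which no scaling affects, stayed within their counting intervals with pseudocounts of 0.5 and 5. With the authors' constants miR-28a-3p stood at 0.32, miR-151-3p at -0.26 and 80 miRNAs were higher; since one factor then multiplies every ratio, the cause is the scaling itself. Without the 5 most abundant miRNAs in the totals miR-151-3p stood at -0.60 and miR-28a-3p at -0.01, so the sign of miR-28a-3p depends on the scaling. With at least 50 counts in a library 35 miRNAs were lower, from fewer miRNAs. The values against R moved by less than 0.1 on the log2 scale when centred on the median or taken through the third deposited table. Depth limits the scarce relatives most: with 6 counts in pOC, the fold of miR-28c had an upper bound of 14.2.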
